A study of Mus musculus with 6 samples.

Results

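The genes described here are 30 mouse genes known for their roles in germ cells and meiosis, read in RNA sequencing of embryonic stem (ES) cells. They are a given list of symbols, and each was found as 1 row among the 46679 genes of the table, of which 46201 carry a GENCODE M21 symbol. The series comprises 3 wild-type samples and 3 samples labelled Sox15 KO, a knockout of the Sox-family transcription factor gene Sox15, all grown in serum with the cytokine LIF and all sequenced from total RNA after ribosomal RNA depletion. The labels used here name neither the parental line, nor the number of clones, nor whether replicates came from separate cultures. The 6 value columns are named s1 to s6 and these names match no sample label, so each column is treated as an ES cell library of unknown genotype, no genotypes are compared, and no test is made. That the 6 columns are the 6 samples rests on their equal number alone.

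ES cells derive from the inner cell mass and are pluripotent, the state from which primordial germ cells, the precursors of eggs and sperm, are specified in the embryo. In germ cells, RNA-binding regulators prepare entry into meiosis, the piRNA pathway uses PIWI proteins and small RNAs to repress transposons, and a chromosome axis built on meiotic cohesin carries the synaptonemal complex, in which homologous chromosomes pair and recombine. Outside germ cells, many of these genes can be held inactive by promoter DNA methylation and by a Polycomb complex known as PRC1.6. Its MGA and MAX subunits bind the E-box CACGTG, and its E2F6 subunit binds E2F-type sites such as TCCCGC.

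Promoters were described first, by sequence alone. RefSeq promoter windows (build GRCm38.p6) were found for 27 of the 30 genes, and the 250 bases before the annotated start were searched for CACGTG, which reads the same on both strands, and for TCCCGC on either strand (written GCGGGA on the other), motifs that do not overlap each other in sequence. CACGTG occurred before 12 of the 27 genes (44.4%), against 6.86% of all 27025 genes with a window, 9.99% of the 9622 such genes with at least 1 CPM (counts-per-million) in every column, and 6.02% of all 32851 windows of this length. The 12 stretches with the motif nearest to the start are printed to show its context, with the motif in capitals and 12 bases on each side where the window allows, on the strand of the gene.

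Ddx4, chr13:112652322-112652351, minus strand: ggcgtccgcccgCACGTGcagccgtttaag
Mov10l1, chr15:88982744-88982765, plus strand: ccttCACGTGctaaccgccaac
Mael, chr1:166238950-166238979, minus strand: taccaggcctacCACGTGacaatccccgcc
Tdrd1, chr19:56826186-56826208, plus strand: tggggctgcgcgCACGTGggagt
Tdrd9, chr12:111971452-111971481, plus strand: gcacgaggctccCACGTGcatgcagggcct
Stk31, chr6:49395472-49395501, plus strand: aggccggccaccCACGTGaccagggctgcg
Sycp1, chr3:102936177-102936206, minus strand: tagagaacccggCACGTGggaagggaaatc
Sycp3, chr10:88459532-88459561, plus strand: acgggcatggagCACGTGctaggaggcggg
Hormad1, chr3:95559645-95559674, plus strand: atgcgcactgcgCACGTGctgaccggagcg
Stag3, chr5:138280327-138280356, plus strand: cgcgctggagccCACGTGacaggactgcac
Taf7l, chrX:134476522-134476551, minus strand: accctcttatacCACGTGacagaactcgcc
Slc25a31, chr3:40708766-40708795, plus strand: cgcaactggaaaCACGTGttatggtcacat

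The first base of the motif lay between 11 bases (Tdrd1) and 246 bases (Mov10l1) before the start. In GENCODE M21 the Ddx4 and Stag3 stretches lie inside exons of those genes, whose annotated starts differ from RefSeq's, and the other 10 touch no exon. For Sycp1, which encodes the transverse filament of the synaptonemal complex, the whole 250 bases before the start at chr3:102936101-102936350 on the minus strand hold 17 CG dinucleotides, and the E-box is in capitals.

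Sycp1: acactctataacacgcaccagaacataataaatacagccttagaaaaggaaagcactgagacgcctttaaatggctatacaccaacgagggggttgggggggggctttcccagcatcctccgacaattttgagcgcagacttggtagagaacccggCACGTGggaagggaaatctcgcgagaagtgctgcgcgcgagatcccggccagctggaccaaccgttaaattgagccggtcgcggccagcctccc

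The E2F-type motif occurred before 9 of the 27 genes (33.3%), against 18.8% of all genes with a window, 35.2% of those at 1 CPM or more in every column and 16.9% of all windows. These 9 stretches are printed because each belongs to a gene with at least 1 CPM in every column, and because 4 of them (Ddx4, Mael, Sycp3 and Hormad1) also carry the E-box above. The motif is in capitals as it reads on the strand of the gene. In GENCODE M21 the Ddx4 stretch lies inside an exon of that gene, and the others touch no exon. The Meioc stretch lies within the GENCODE span of its gene, downstream of the start annotated there.

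Kit, chr5:75574879-75574908, plus strand: agtgcgacccggGCGGGAgaagggaggggc
Ddx4, chr13:112652429-112652458, minus strand: tccgtccatgggGCGGGAagtcgcgcgccg
Meioc, chr11:102665345-102665374, plus strand: agcttcctttgaGCGGGAaacatcttcagc
Mael, chr1:166238870-166238899, minus strand: gctcctcctcccTCCCGCcccctccgcccc
Tex19.1, chr11:121146098-121146127, plus strand: agctggagcatcGCGGGActtggcccttta
Sycp3, chr10:88459428-88459457, plus strand: aaggaaggaacaGCGGGAaagtgctgcttc
Hormad1, chr3:95559570-95559599, plus strand: gcgcagcttttgGCGGGAatagtggtctgg
Smc1b, chr15:85131987-85132016, minus strand: aaaagaatttctTCCCGCgctttttttttt
Dmc1, chr15:79605110-79605134, minus strand: aagggggcttgcTCCCGCggccctc

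Both motifs stood before 14.8% of the listed genes and 1.98% of all genes, and at least 1 of them before 63.0% and 23.7%. Among the genes at 1 CPM or more in every column, these shares were 3.91% and 41.3%. Among the 17 listed genes with a window that reached 1 CPM in every column, 9 had the E-box and 9 the E2F-type motif, and among the other 10 the numbers were 3 and 0. The ratio of observed to expected CG dinucleotides, a measure of CpG content, had a median of 0.71 over the 27 genes, 0.40 over all genes with a window and 0.77 over those at 1 CPM or more. These matches describe letters in a window and were not tested.

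**Figure D1:**
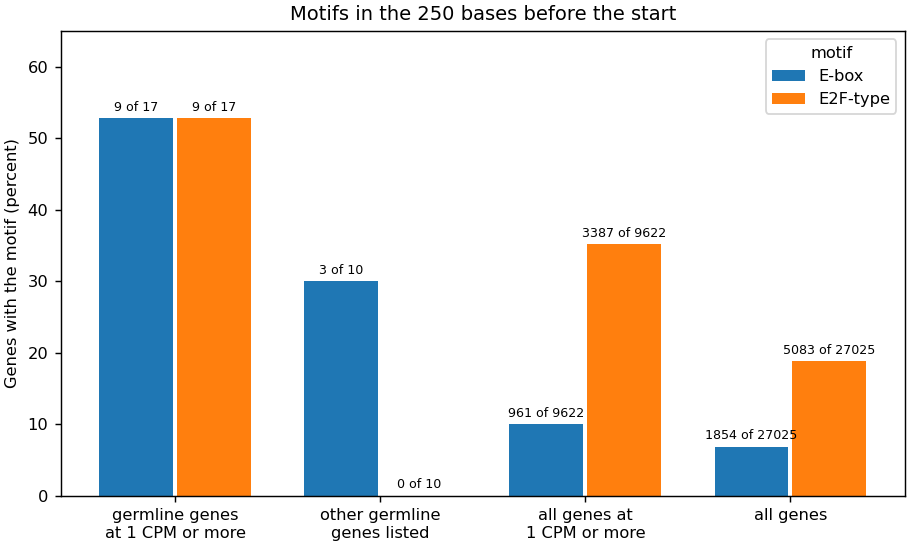
Percent of genes (vertical axis) with an E-box or an E2F-type motif in the 250 bases before the start, for the 17 listed germline genes at 1 CPM or more in every column, the other 10 listed genes, all genes at that level and all genes with a promoter window. The E-box stands before 9 of 17 and 3 of 10 listed genes, and before 961 of 9622 and 1854 of 27025 genes in the last pair of sets.

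Column totals ran from 25424900 to 33988100 estimated counts, so that 3 counts, the limit that a count of 0 allows, correspond to 0.0883 to 0.118 CPM. The intervals given are exact Poisson or, for ratios, Clopper-Pearson 95% intervals on rounded counts, and cover counting error only. All 10 ES cell markers, among them the pluripotency factors Pou5f1, Nanog and Sox2, exceeded 1 CPM in every column, and their summed level was 2728 to 3749 CPM. Of 5 primitive endoderm markers Gata4 and Dab2 did, with a sum of 11.7 to 20.96 CPM over the list. Of 7 feeder fibroblast markers only Col1a1 did, with Dcn and Lum under 0.1 CPM in every column, and their sum was highest in s3 (40.8 CPM) and s1 (32.7 CPM) and 4.29 to 8.43 CPM elsewhere. The summed level of 8 markers of the 2-cell-like state, a rare state of ES cells, was 62.3 CPM in s6, 28.9 CPM in s2 and 0.223 to 7.33 CPM in the other columns.

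Transcripts of most of these germline genes were present in the ES cells, as were those of most protein-coding genes. At least 1 CPM was reached in every column by 20 of the 30 genes, against 29.9% of all 46679 genes and 54.6% of the 21581 protein-coding ones. No listed gene was under 0.1 CPM in every column, a state shared by 43.4% of all genes and 21.3% of protein-coding genes. The other 10 genes lay between these limits: Dazl, Sycp2, Stra8, Nanos3, Taf7l, Slc25a31, Tdrd9, Rhox13, Tex101 and Asz1. In bulk RNA, a low level in every cell and a high level in few cells cannot be told apart.

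**Figure D2:**
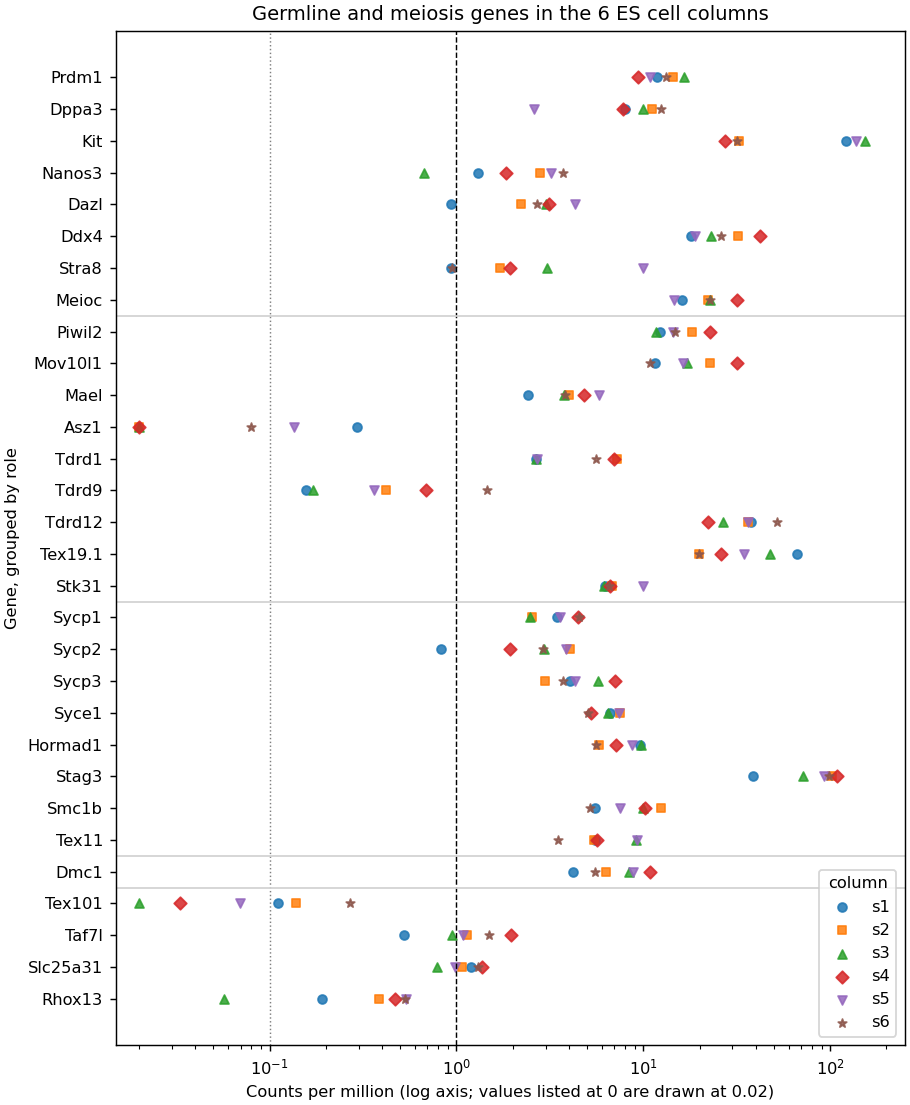
CPM (horizontal log axis) of the 30 genes in the 6 columns, grouped by role, with dashed and dotted lines at 1 and 0.1 CPM and values listed at 0 drawn at the left edge. Stag3 and Kit reach 109 and 153 CPM, and Asz1 is listed at 0 in 3 columns.

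Per kilobase of exon, the scale on which genes can be compared, Stag3 and Tex19.1 led with median levels of 16.6 and 16.2 CPM per kb. Dppa3 followed with 10.04 CPM per kb, then Kit with 8.61, Tdrd12 with 8.34 and Ddx4 with 8.13. The lowest of the 20 were Sycp1 at 0.99 and Tdrd1 at 0.76 CPM per kb, and the lowest of all 30 were Tex101 at 0.054 and Asz1 at 0.014 CPM per kb. For all 29 pairs of neighbours in this order the ranges over the 6 columns overlapped, so neighbours were not separated beyond their spread.

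Of the 8 regulators of germ cell identity, 5 reached 1 CPM in every column. This count and those of the other roles below stand beside 54.6% of protein-coding genes at that level. Kit, the receptor tyrosine kinase for stem cell factor that supports primordial germ cells, lies at chr5:75574916-75656722 on the plus strand (mm10). Its levels were 121 CPM in s1, 32.4 in s2, 153 in s3, 27.2 in s4, 137 in s5 and 31.8 in s6. The values in s1, s3 and s5 were all above those in s2, s4 and s6, with nothing between 32.4 and 121 CPM. The highest was 5.63 times the lowest (95% interval 5.22 to 6.06), the widest ratio among the 20 genes. The summed feeder markers were 32.7 CPM in s1, 40.8 in s3 and 4.34 in s5, and their part in the Kit values was not tested.

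Prdm1, the transcriptional repressor that starts the germ cell programme, ranged from 9.35 CPM in s4 to 16.5 CPM in s3. Dppa3, also called Stella, protects maternal chromatin from demethylation and marks primordial germ cells and naive ES cells, and lies at chr6:122626410-122630272 on the plus strand. Its levels were 7.96 CPM in s1, 11.2 in s2, 9.95 in s3, 7.82 in s4, 2.59 in s5 and 12.4 in s6. Column s5 was the low one, and the ratio of highest to lowest was 4.77 (3.71 to 6.20). Of the 31-base words of Dppa3 transcripts, 28.9% also occur in the pseudogene Dppa3-ps, which was listed at 0.0387 CPM or less.

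Ddx4, the DEAD-box helicase known as Vasa in flies, had 17.9 CPM in s1, 32.1 in s2, 23.1 in s3, 42.2 in s4, 18.8 in s5 and 26.0 in s6. Meioc, the partner of the RNA-binding protein Ythdc2 in sustaining meiotic prophase, had 16.0, 22.2, 22.8, 31.7, 14.6 and 22.7 CPM in s1 to s6. Both genes were highest in s4, and their lowest pair of columns was s1 and s5.

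Dazl, Stra8 and Nanos3 did not reach 1 CPM in every column. Dazl, an RNA-binding protein that licenses germ cells for gametogenesis, had 0.938 CPM in s1, with a 95% interval of 0.614 to 1.40, and 2.22 to 4.30 CPM in the other 5 columns. Stra8, the retinoic acid-responsive gatekeeper of meiotic entry, lies at chr6:34920163-34939344 on the plus strand. It had 0.934 CPM in s1, 1.72 in s2, 3.07 in s3, 1.94 in s4, 9.95 in s5 and 0.952 in s6. Column s5 thus held 10.6 times the Stra8 level of s1 (interval 6.97 to 16.5). Nanos3, an RNA-binding protein needed for germ cell survival, ranged from 0.67 CPM in s3 to 3.74 CPM in s6.

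Of the 9 genes of the piRNA pathway and of nuage, the cytoplasmic granule where piRNAs are made, 7 reached 1 CPM in every column. Piwil2, a PIWI protein also called MILI, had 12.3 CPM in s1, 18.2 in s2, 11.7 in s3, 22.7 in s4, 14.4 in s5 and 14.7 in s6. Mov10l1, the helicase that feeds piRNA precursors into processing, had 11.6, 22.8, 17.1, 31.7, 16.4 and 10.8 CPM in s1 to s6. For both genes s4 was the highest column and s2 the next.

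Tdrd1, a tudor-domain protein that binds PIWI proteins, split into 7.21 CPM in s2, 7.01 in s4 and 5.61 in s6 against 2.65 in s1, 2.67 in s3 and 2.70 in s5. Its 3 low columns were nearly level, and its ratio of highest to lowest was 2.72 (2.06 to 3.62). Tdrd12, another tudor-domain protein, had 37.8 CPM in s1, 36.2 in s2, 26.6 in s3, 22.3 in s4, 36.1 in s5 and 51.9 in s6. The column with most Tdrd12 was thus s6 and the one with least s4, where Tdrd1 was high.

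Tex19.1, which restrains transposons in germ cells and placenta, lies at chr11:121146143-121148319 on the plus strand. It had 66.1 CPM in s1, 19.8 in s2, 47.7 in s3, 26.1 in s4, 34.5 in s5 and 19.7 in s6. The columns s1, s3 and s5 were the highest 3, as for Kit, with a ratio of highest to lowest of 3.35 (3.03 to 3.70). Its paralog Tex19.2, which holds 6.31% of the 31-base words of Tex19.1, stayed between 0.265 and 0.906 CPM. Mael, a nuage protein with an HMG domain, ranged from 2.42 CPM in s1 to 5.82 in s5. Stk31, with tudor and kinase domains, ranged from 6.14 to 6.82 CPM in 5 columns and stood at 10.01 CPM in s5.

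Tdrd9, the helicase that acts with the PIWI protein MIWI2, reached 1 CPM in s6 alone, with 1.45 CPM (1.02 to 2.01), and had 0.158 to 0.687 CPM elsewhere. Column s6 was also the highest for the summed 2-cell-like markers given above. A part of that state in the Tdrd9 value was not tested. Asz1, a scaffold of nuage at the mitochondrial surface, was listed at 0 in s2, s3 and s4 and at 0.292, 0.135 and 0.0795 CPM in s1, s5 and s6. All values of Asz1 other than that of s1 were near or under 3 counts.

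Of the 8 genes of the chromosome axis, meiotic cohesin, the synaptonemal complex and crossing over, 7 reached 1 CPM in every column. Stag3, the cohesin subunit of the meiotic axis, lies at chr5:138280240-138312393 on the plus strand. It had 38.8 CPM in s1, 102 in s2, 71.1 in s3, 109 in s4, 92.3 in s5 and 98.4 in s6. The low column was s1, and the ratio of highest to lowest was 2.82 (2.63 to 3.03). Smc1b, its partner in meiotic cohesin, had 5.54, 12.4, 9.95, 10.2, 7.55 and 5.18 CPM in s1 to s6. It was low in s1 as Stag3 was, but lowest in s6, where Stag3 was not low.

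Sycp1 ranged from 2.48 CPM in s3 to 4.55 CPM in s6. Of its 31-base words, 15.6% also occur in other genes. The pseudogene Sycp1-ps1, which had 0.103 CPM or less, holds 13.1% of them. Sycp3, a component of the axial elements, ranged from 2.97 CPM in s2 to 7.01 CPM in s4. An exon of Chpt1, a phospholipid synthesis gene on the opposite strand, overlaps Sycp3 and holds 46.5% of its 31-base words. Chpt1 had 10.9 to 22.1 CPM, and since the strand setting of the quantification is not given in the sources used here, reads of the overlap cannot be told apart. Sycp2, the partner of Sycp3, had 0.822 CPM in s1 and 1.93 to 4.07 CPM in the other columns.

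Syce1, of the central element, ranged from 5.09 to 7.50 CPM, and its ratio of highest to lowest, 1.47, was the narrowest of the 20. Hormad1, which marks unsynapsed axes, had 9.56, 9.72 and 8.67 CPM in s1, s3 and s5 and 5.82, 7.18 and 5.57 CPM in s2, s4 and s6. Of its 31-base words, 31.5% also occur in Gm15529, which had 0.612 CPM or less. Tex11, an X-linked crossover protein, had 9.12 CPM in s3 and 9.29 in s5, 5.47 to 5.68 in s1, s2 and s4, and 3.48 in s6.

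Dmc1, the meiotic recombinase, had 4.22 CPM in s1, 6.28 in s2, 8.37 in s3, 10.8 in s4, 8.81 in s5 and 5.53 in s6. Its lowest and highest columns, s1 and s4, were those of Ddx4 and Stag3 too.

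None of the 4 remaining genes, which act later in sperm formation or whose germ cell role is less defined, reached 1 CPM in every column. Slc25a31, the ADP/ATP carrier of male germ cells, stood at 0.789 to 1.36 CPM, a narrow range whose ratio of 1.73 has an interval of 1.03 to 2.89. Taf7l, an X-linked relative of a TFIID subunit, ranged from 0.525 CPM in s1 to 1.97 in s4. The X-linked homeobox gene Rhox13 ranged from 0.0574 to 0.534 CPM. Tex101, a surface protein of male germ cells, was listed at 0 in s3 and had at most 0.269 CPM (0.111 to 0.567), in s6.

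**Figure D3:**
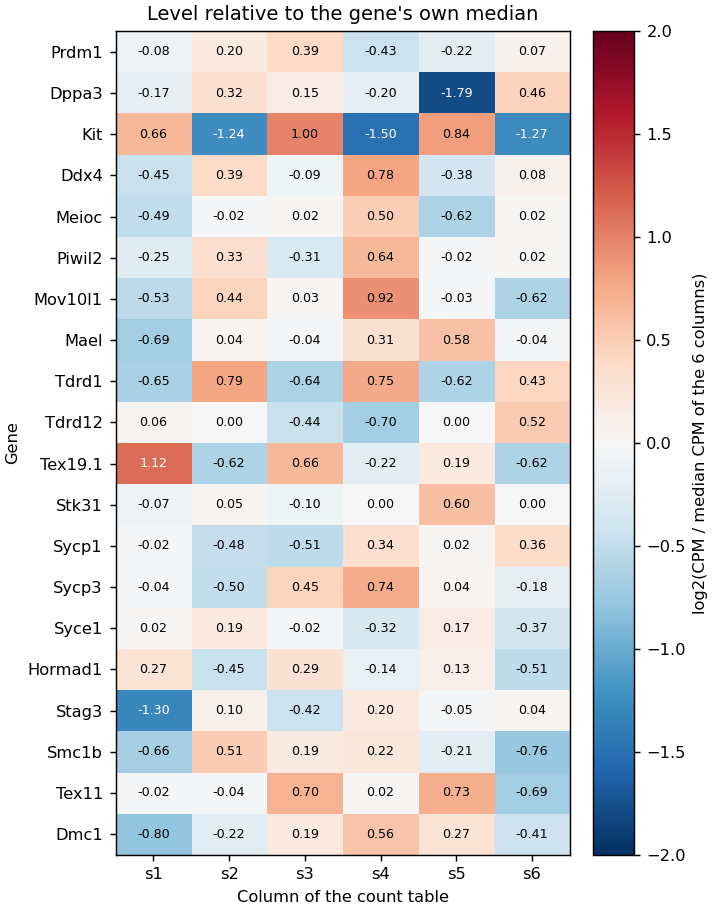
Log2 ratio of each CPM value to the gene's median over the 6 columns, for the 20 genes at 1 CPM or more in every column (rows) and the columns s1 to s6, red above and blue below the median. The deepest red is Tex19.1 in s1 at 1.12, the deepest blue Dppa3 in s5 at -1.79, and Kit falls to -1.50 in s4.

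Between columns, the levels of these 20 genes differed by 1.47 to 5.63 times. The ratio of highest to lowest CPM was at least 1.5 for 19 of the 20 genes, against 63.0% of the 13970 genes at 1 CPM or more in every column and 63.9% of the 9852 among them with a median between 3.53 and 95.4 CPM, the range of the 20. It was at least 2 for 14 of the 20, against 28.3% of all these genes. The median ratio was 2.38 for the 20 and 1.63 for all 13970. A dispersion index, the variance over the columns divided by that expected from counting alone, ran from 4.60 for Syce1 to 1209 for Kit, with a median of 28.9 over the 20 and 20.05 over the genes in the same range of level. Among the 10 genes of lower level, the index was 1.31 for Slc25a31, close to counting error, and 109 for Stra8.

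**Figure D4:**
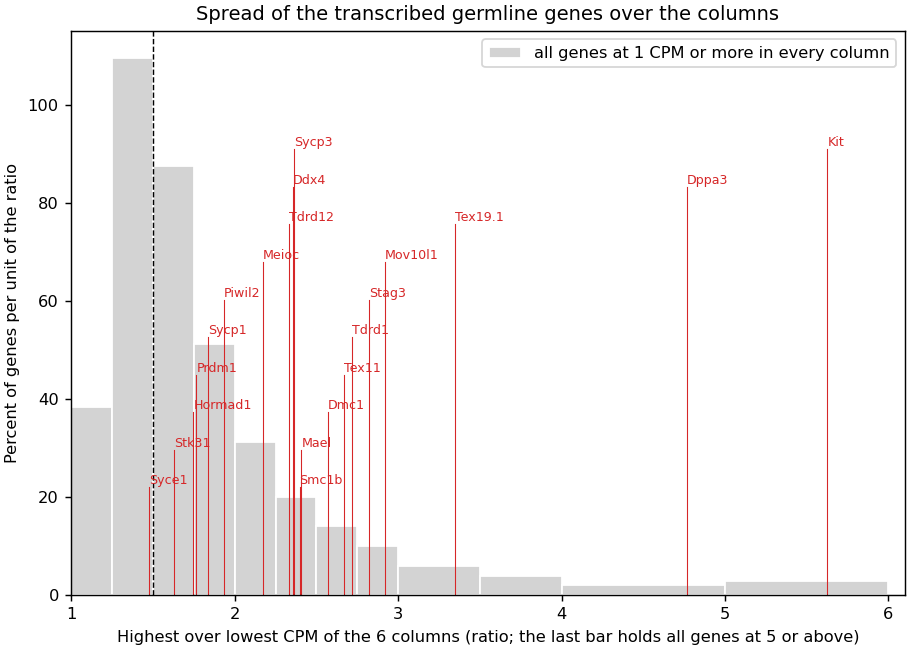
Distribution of the ratio of highest to lowest CPM (horizontal axis) over the 13970 genes at 1 CPM or more in every column (grey bars, percent of genes per unit of the ratio), with the 20 germline genes as red lines whose heights serve only to separate names; the last bar holds all genes at 5 or above. The dashed line marks a ratio of 1.5, which 19 of the 20 exceed, and Dppa3 and Kit lie farthest to the right at 4.77 and 5.63.

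The 20 genes did not vary as a block. The highest column was s4 for 7 of them (Ddx4, Meioc, Piwil2, Mov10l1, Sycp3, Stag3 and Dmc1), s2, s3, s5 and s6 for 3 each and s1 for 1. Over all 13970 genes the highest column was s1 for 19.8%, s2 for 10.7%, s3 for 22.2%, s4 for 12.9%, s5 for 21.0% and s6 for 13.4%. The lowest column was s6 for 6 of the 20, s1 for 5 (Ddx4, Mael, Tdrd1, Stag3 and Dmc1), s3 and s4 for 3 each, s5 for 2 and s2 for 1. Over all genes it was s1 for 15.9%, s2 for 19.9%, s3 for 20.2%, s4 for 18.0%, s5 for 14.2% and s6 for 11.7%. Only 5 of the 20 were above their own median in s1, against 13 in s4. The same share was not computed over all genes, so these counts may reflect the columns and not the germline genes. Genes within a pathway could differ in their order of columns, as Tdrd1 and Tdrd12 did.

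Other germline genes were taken from lists drawn up by role, which were chosen with earlier results of these data known. Their shares are set beside the 54.6% of protein-coding genes at 1 CPM or more and the 21.3% under 0.1 CPM in every column. Of 17 further piRNA pathway genes, 9 (52.9%) reached 1 CPM in every column, a share near that background, and 0 were under 0.1 CPM in every column. The most abundant by count was Rnf17, a tudor-domain protein, at 56.8 to 88.8 CPM. It was followed by Tdrd3, which is listed here but is not specific to this pathway, and by Pnldc1, Ddx25, Tdrkh and Exd1. Of 25 further meiosis genes, 13 (52.0%) reached that level, also near the background, and 1 (Meikin) was under 0.1 CPM in every column. They were led by the mismatch repair gene Mlh3 at 44.2 to 64.5 CPM, Ythdc2 at 26.9 to 44.4 CPM and Tex14, a protein of germ cell bridges, at 24.6 to 58.4 CPM. Of 10 further genes of germ cell specification, 8 (80.0%) reached 1 CPM in every column and 1 (Nanos2) was under 0.1 CPM in every column. The RNA-binding protein Lin28a had 177 to 431 CPM and the regulator Tfap2c 33.6 to 64.8 CPM, while Tex19.2 had 0.265 to 0.906 CPM. Genes that also act in pluripotent cells, such as Prdm14, are among the 8, so this share is not specific to germ cells.

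Genes of differentiated gametes were mostly near 0. Of 11 oocyte genes only Sohlh2, a helix-loop-helix factor of early germ cells, reached 1 CPM in every column, at 1.91 to 11.4 CPM, and 7 were under 0.1 CPM in every column. Of 10 spermatid genes none reached 1 CPM in every column and 6 were under 0.1 CPM in every column. The protamine gene Prm1, the transition protein gene Tnp1 and Akap4 were listed at 0 throughout, and are named here after their values were seen. Of 4 gonadal somatic markers only Wt1, a zinc finger factor, reached 1 CPM in every column, at 2.27 to 5.71 CPM.

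All 12 listed subunits of PRC1.6 reached 1 CPM in every column, against 54.6% of protein-coding genes. Mga, its scaffold, had 528 to 666 CPM, Max 50.4 to 60.4 CPM, L3mbtl2 101 to 184 CPM, Pcgf6 48.9 to 54.8 CPM and E2f6 25.6 to 35.3 CPM. The ratio of highest to lowest level ran from 1.12 for Pcgf6 to 2.71 for Ring1 over the 12 genes, with 1.26 for Mga, 1.82 for L3mbtl2 and 1.96 for Tfdp1. Tfdp1 had 107 to 209 CPM, Rybp 163 to 254, Cbx3 276 to 342, Wdr5 152 to 224 and Rnf2 96.2 to 127 CPM. Yaf2 and Ring1, which have close paralogs in Rybp and Rnf2, stood at 4.16 to 6.22 and 3.80 to 10.3 CPM.

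**Figure D5:**
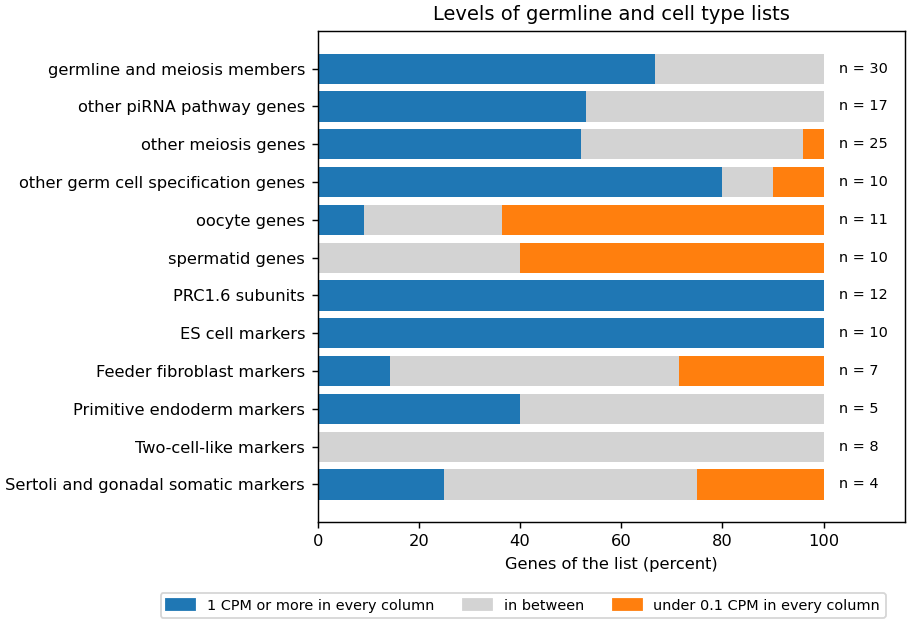
Percent of genes in each list (horizontal axis) with at least 1 CPM in every column (blue), with under 0.1 CPM in every column (orange) or in between (grey), with the number of genes found at the right. The 30 germline genes have 20 in blue and 0 in orange, all 12 PRC1.6 subunits and 10 ES cell markers are blue, and 7 of 11 oocyte and 6 of 10 spermatid genes are orange.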

How the data were processed

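The authors deposited 1 table of estimated counts per gene, not scaled to depth, as the values show. Per the submitters' processing notes, Salmon 0.12.0, DESeq2 and mm10 were used. Annotation, strand setting and how transcripts were summed per gene: not given in the sources used here. All 6 value columns were used and 0 were left out. No column was assigned to a sample or genotype, and the columns were not averaged as replicates. The level of Sox15 was not used.

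CPM were computed from unrounded counts over the column total, and counts were rounded only for intervals. All 30 genes are named, ordered by role. The genes and lists were chosen with earlier results of these data known; from the other lists, PRC1.6 genes and at most 6 genes by summed count among those at 1 CPM or more were named. Outside that rule, Prm1, Tnp1, Akap4, Dcn, Lum, Sox2, Meikin, Nanos2, Klf4, Utf1, Fbxo15, Zscan4c and Zscan4f were named after their values were seen. Tex19.2, the paralog of Tex19.1, was also named outside that rule. Genes were matched by Ensembl ID, and exon lengths, overlaps and shared 31-base words were taken from GENCODE M21 (mm10). Reads shared with overlapping genes or pseudogenes may be split between them by the quantification. The ratio rule was run on simulated counts that held counting error only. The columns here spread more than that, so the run does not measure how often the rule passes unchanged genes in these data. Over the 15 pairs of columns, the median squared difference divided by its counting variance ran from 2.88 to 17.3, so no pair agreed within sampling noise. Python 3.11.15, pandas 2.3.3, scipy 1.17.1 and edgeR 4.0.16 (TMM factors) were used.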

Additional observations from a re-analysis of the deposited data

Results flagged for a closer look

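Stk31 in s5, at 10.01 CPM, stood far from the other 5 columns, with a gap to the nearest of them of 0.824 of the whole range, above Dixon's 95% limit for 6 values. It was the only 1 of the 20 genes to do so. The same limit was passed by 5.78% of the 13970 genes at 1 CPM or more in every column, and chance flags about 1 in 20.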

How the results depend on the processing

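The number of germline genes at the set level in every column was 20, and 26 at 0.5 CPM, 20 at 2 CPM, 21 at 1 TPM, 20 with TMM or median-of-ratios scaling, and 24 with the library total taken without mitochondrial genes and the 10 most abundant genes, a change that raises every CPM (median shift 0.33 on the log2 scale). Leaving out each column in turn gave 20 to 22, the most without s1. The number under the floor was 0 in all 11 alternatives run. The number with a ratio of at least 1.5 was 19, with 18 to 24 under the other scalings, columns left out and the rule on mean level, 20 at a lower ratio and 14 at a ratio of 2. Column s4 held the most highest values under every scaling. Over the 3 other scalings, the 60 recomputed ratios of single genes were 0.951 to 1.07 times the values given, and 0 fell outside their counting intervals. The E-box count was 12 also in the whole 300-base window. No paired analysis was possible because names such as s1 give neither genotype nor replicate. Depth limits the genes of lowest level, where 3 counts correspond to about 0.1 CPM.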

Other observations

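The values of Kit fall into 2 separate sets of columns, 121, 153 and 137 CPM in s1, s3 and s5 and 32.4, 27.2 and 31.8 CPM in s2, s4 and s6. Prdm14, a regulator of germ cell specification and naive pluripotency, had 18.3, 24.8 and 29.3 CPM in s1, s3 and s5 and 6.50, 5.21 and 7.48 CPM in s2, s4 and s6. Lin28a had 324, 197 and 177 CPM in s1, s3 and s5 and 431, 370 and 417 CPM in s2, s4 and s6. The pluripotency factor Klf4 had 188, 242 and 240 CPM and 53.7, 53.5 and 78.5 CPM in the same order. Other ES cell markers did not all follow Klf4. Nanog and Esrrb were also higher in all of s1, s3 and s5, but Utf1, Dppa5a and Fbxo15 were higher in all of s2, s4 and s6. For Pou5f1, Sox2, Zfp42 and Tdgf1 the 2 sets of columns overlapped. The genes of this paragraph were picked after their values were seen, and which genotype any column holds is unknown.

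The 3 highest columns were s1, s3 and s5 for 3 of the 20 germline genes (Kit, Tex19.1 and Hormad1) and for 18.8% of the 13970 genes at 1 CPM or more in every column. They were s2, s4 and s6 for 4 of the 20 (Ddx4, Piwil2, Tdrd1 and Stag3) and for 13.1% of all genes. Of the 20 possible sets of 3 columns, these were the 2 most frequent over all genes, and the next held 7.23%. The other 13 germline genes had other sets, among them s3, s4 and s5 for Sycp3, Tex11 and Dmc1.

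Transcripts of the Zscan4 family, which mark the 2-cell-like state, differed more between columns than any germline gene at 1 CPM or more in every column. The comparison is uneven, because the Zscan4 levels fell to 0 or near it in some columns, where a ratio has no firm upper limit. Germline genes of lower level also had wide ratios, such as 10.6 for Stra8. Zscan4f was listed at 0 in s1 and s3 and at 1.66 CPM in s5, 3.14 in s4, 15.1 in s2 and 29.2 in s6. Zscan4c had 0.258, 5.53, 0.128, 1.47, 0.905 and 15.5 CPM in s1 to s6. The paralogs of this family share sequence, so their single values are uncertain.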
